A study of Mus musculus with 15 samples.

Results

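GFP1 and GFP2 are the 2 bins at the low-numbered end of a histone-label scale in mouse hematopoietic stem cells (HSCs), and the 3 GFP1 libraries were set against the 3 GFP2 libraries, 6 of the 15 libraries of the series. The libraries were taken by their labels. All groups came from mice carrying hCD34-tTA and TetO-H2BGFP: a tetracycline transactivator under human CD34 regulatory sequence drives histone H2B fused to green fluorescent protein. Which cells receive the label therefore depends on that CD34 sequence. The mice were given doxycycline, which stops new label, so that the label already in the chromatin is diluted when a cell divides. The bone marrow sort kept cells with Sca1, c-Kit and CD150 and without lineage markers, CD48 or Flk2, and split them by GFP. Replicate I of GFP1 came from mice 5 months old that had had 12 weeks of doxycycline, replicate II from mice of 5.5 months with 14 weeks, and replicate III from mice of 6.5 months with 16 weeks. GFP2, GFP3, GFP4 and the undivided sort, Total, share these ages and treatment lengths by replicate number. The labels do not say which end of the numbering holds most label. It is read here as rising with the number, which makes GFP1 against GFP2 the last step of label loss. How many mice went into a library, and whether libraries of one number share mice, is not in the labels, so the p-values measure only the spread between these libraries.

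HSCs renew the blood for life and spend most of their time out of the cell cycle. As they leave that state they enter division, lose factors that hold them in the stem cell program, and begin to transcribe genes of the blood lineages. Immunoglobulin genes are the antibody genes of B cells and of the plasma cells that B cells become. They are described apart from the other genes here, together with Jchain, which encodes the chain that joins IgA and IgM units.

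The table gave 1 log2 value per gene symbol and library for 31298 symbols, and 27994 of them entered the test. All libraries share one distribution of values, so that neither read depth nor total RNA can be read from it. A fold change here is on the scale of the deposited log2 values, which understate the change of low genes. Levels are the deposited log2 values, and summed levels of several genes are in ppm of the linear total of a library. Outside the immunoglobulin genes, GFP1 libraries correlated among themselves with Pearson's r of 0.967 to 0.974, GFP2 libraries with 0.957 to 0.977, and GFP1 with GFP2 libraries with 0.924 to 0.952, over the 10229 genes whose mean reached 10 ppm. These coefficients run across genes, and genes are no independent replicates. The 9 HSC markers checked, among them Procr, Hlf, Mecom and Fgd5, were all read in every library, the lowest at 7.47 in GFP1 and 8.46 in GFP2. In bulk libraries such as these, fewer cells of a type and less RNA per cell cannot be told apart.

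Outside the immunoglobulin genes and Jchain, 693 of 27687 genes were higher in GFP1 than in GFP2 and 1149 were lower, at an adjusted p under 0.05 in limma. That is 2.50% of genes higher and 4.15% lower. Of genes whose mean reached 10 ppm, 5.07% were higher and 9.27% lower. With the immunoglobulin genes counted in, 3.06% of all genes were higher. A change of at least 2-fold was reached by 244 of the higher and 241 of the lower genes. The higher genes had a median log2 difference of 0.73 and the lower genes one of −0.66, while the median of all genes tested was −0.056. All 3 GFP1 libraries lay above all 3 GFP2 libraries in 691 of the 693 higher genes, and below them in 1142 of the 1149 lower genes. Such separation was itself common, since it was seen upward in 9.38% and downward in 14.7% of all genes.

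The balance of the calls depended on how the values were scaled. When the values were quantile normalized again without immunoglobulin genes and Jchain, 817 genes were higher and 876 lower, a share of 48.3% higher in place of 37.6%. Of the main calls, 691 higher and 876 lower genes were among them. Rescaling by the median of ratios, which kept the immunoglobulin genes, gave 879 higher and 1008 lower (46.6% higher). The part of the immunoglobulin transcripts in the balance was not tested. The counts also moved with single libraries: the higher genes numbered 380 without GFP2 replicate II, 354 without GFP2 replicate III, 363 without GFP1 replicate I and 356 without GFP1 replicate III. Lower genes numbered 715, 747 and 743 without GFP2 replicate II, GFP2 replicate III and GFP1 replicate III in turn. With the replicate number as a block, 866 were higher and 1425 lower.

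**Figure D1:**
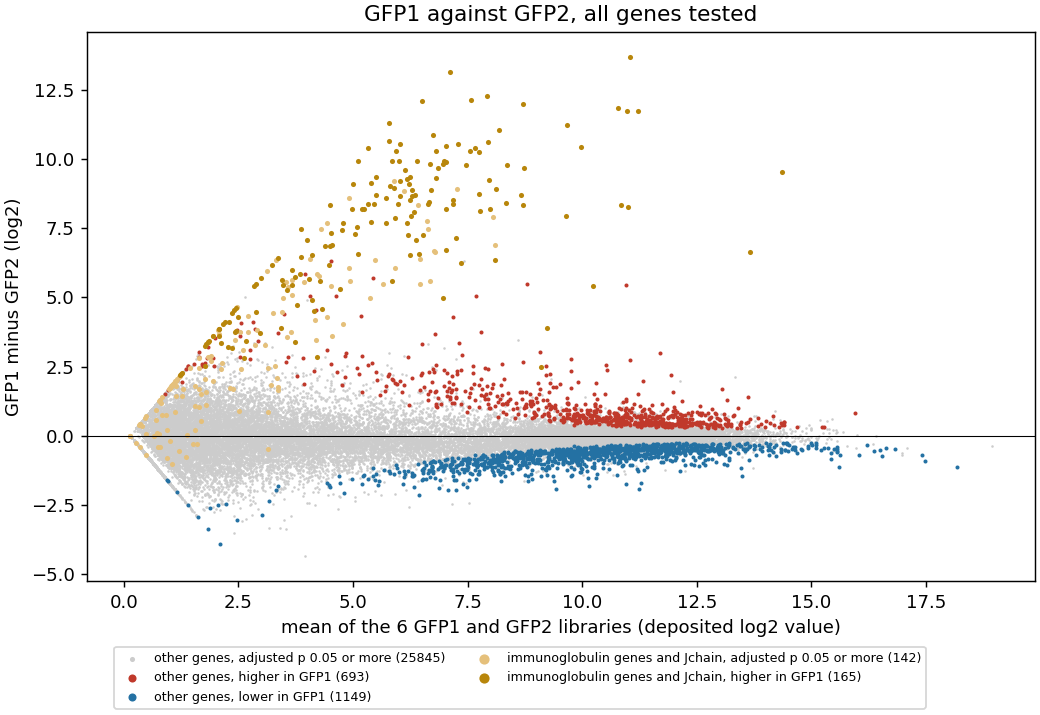
Difference between GFP1 and GFP2 (log2, vertical axis) against the mean of the 6 libraries (deposited log2 value, horizontal axis) for the 27994 genes tested, 1 point per gene. The 165 gold points are 164 immunoglobulin genes and Jchain, called higher in GFP1; they rise far above the 693 other genes that were higher (red), while the 1149 lower genes (blue) lie mostly within 2 log2 units of 0.

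Antibody transcripts made up the largest differences between the bins. Of 306 immunoglobulin genes tested, 164 were higher in GFP1, and 142 did not pass. Their summed level was 49230 to 52822 ppm in GFP1, against 72.6 to 162 ppm in GFP2; Total held 43448 to 54936 ppm, GFP3 117 to 600 ppm and GFP4 93.9 to 737 ppm. The variable segments, which encode the part of the antibody that binds antigen, included 87 of 155 heavy chain segments (Ighv, median log2 difference 4.63), 63 of 135 kappa segments (Igkv, median 5.58) and 3 of 3 lambda segments (Iglv, median 6.23). In all 3 GFP2 libraries together 56 of the 306 genes sat at the lowest value of their library, and in all 3 GFP1 libraries 6 did. The sizes therefore depend on the offset in the authors' values. Because many segments are near copies, a value for any single one is uncertain. Without GFP2 replicate III the number of immunoglobulin genes called was 103.

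Constant genes encode the rest of the antibody chain and set its class. Igkc, the kappa light chain constant gene (chromosome 6, 70726435 to 70726966, GRCm38), had log2 values of 19.12, 19.12 and 19.12 in GFP1, against 9.71, 10.05 and 9.02 in GFP2 (log2 difference 9.52, SE 0.87, adjusted p = 0.000124). It stood at the highest value of the table in every GFP1 library. Because all libraries share one distribution, a top-ranked gene reads that value in each, so its equal values say nothing of replicate spread. The lambda constant gene Iglc1 had 15.76, 14.42 and 15.23 in GFP1, against 6.86, 6.94 and 6.77 in GFP2 (log2 difference 8.28, SE 0.58, adjusted p = 1.92e-05). Ighm, the constant gene of IgM, had 17.75, 15.27 and 17.94 in GFP1, against 10.34, 11.05 and 9.68 in GFP2 (log2 difference 6.63, SE 1.04, adjusted p = 0.00336), so that GFP2 libraries read it well above the lowest value while they did not overlap with GFP1. Ighg2b, for a class of IgG, had 15.82, 17.54 and 16.76 in GFP1, against 2.24, 5.36 and 7.002 in GFP2 (log2 difference 11.84, SE 1.27, adjusted p = 0.000331). Ighg2c, for another, had 17.29, 17.29 and 15.94 in GFP1, against 5.13, 4.98 and 5.18 in GFP2 (log2 difference 11.74, SE 0.69, adjusted p = 4.78e-06). Igha, the constant gene of IgA, had 17.94, 17.94 and 17.75 in GFP1, against 4.91, 3.76 and 3.90 in GFP2. Its log2 difference of 13.68 (SE 3.01, adjusted p = 0.0208) missed the threshold without GFP2 replicate II or III or any single GFP1 replicate (adjusted p 0.0605 to 0.0718). All groups share the estimate of spread in this fit. The standard deviation (SD) of Igha was 5.79 in GFP3 and 5.86 in GFP4, against 0.11 in GFP1 and 0.63 in GFP2. With the compared groups alone the call of Igha was kept.

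The classes did not all behave alike. Ighg1 had 4.51, 13.74 and 12.88 in GFP1, against 0.14, 1.10 and 3.04 in GFP2, so the GFP1 libraries themselves ran over a wide range. It passed (log2 difference 8.95, SE 2.24, adjusted p = 0.0368) but missed the threshold without any one of GFP2 replicates I, II and III or of GFP1 replicates II and III (adjusted p 0.0557 to 0.235 over all settings that lost it). Ighg3 passed (log2 difference 8.19, SE 1.87, adjusted p = 0.0246) and was lost without any single one of the 6 libraries (adjusted p 0.0557 to 0.0903). Ighd, the IgD constant gene of unswitched B cells, had 10.60, 10.72 and 9.67 in GFP1, against 8.35, 8.48 and 6.76 in GFP2 (log2 difference 2.47, SE 0.57, adjusted p = 0.023); it was lost without GFP2 replicate III or GFP1 replicate I or II (adjusted p 0.0676, 0.0821 and 0.0771). Ighe, the IgE constant gene, differed by 2.89 and did not pass (adjusted p = 0.225). Iglc4 differed by 2.06 (adjusted p = 0.147), while Iglc2 (5.42, SE 0.36) and Iglc3 (3.88, SE 0.42) rose. Jchain had 17.02, 16.94 and 17.29 in GFP1, against 5.95, 4.61 and 5.47 in GFP2 (log2 difference 11.74, SE 1.81, adjusted p = 0.00305). Its SD was 3.43 in GFP3 and 3.46 in GFP4, against 0.18 in GFP1 and 0.68 in GFP2. Variable segments with some of the largest rises were Ighv8-8 (13.13, SE 0.78), Igkv9-120 (12.28, SE 1.00) and Ighv1-9 (12.10, SE 2.01). Total, the undivided sort, held the same transcripts: Igkc read 19.12, 19.12 and 19.12, Igha 17.29, 18.75 and 17.29 and Jchain 16.14, 17.54 and 16.04. For Igkc this is again the highest value of the table, so its levels in GFP1 and Total cannot be compared.

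Genes of antibody-secreting cells rose with the immunoglobulin genes. Outside the immunoglobulin genes 2.50% of all genes were higher, and 5.07% of those at 10 ppm or more. Of 24 plasma cell genes tested, 18 were higher in GFP1 (median log2 difference 1.69, against −0.056 over all genes), a list that includes Jchain. This list, like the others here, was chosen with earlier results of these data known, so its count is no independent test. Mzb1, which helps assemble antibodies in the endoplasmic reticulum, had log2 values of 11.49, 11.60 and 11.50 in GFP1, against 6.55, 6.10 and 5.52 in GFP2 (log2 difference 5.48, SE 0.36, adjusted p = 6.26e-07). Its 3 GFP1 libraries were close together and far above GFP2. Derl3, a component of the machinery that removes misfolded secretory proteins, had 10.46, 9.95 and 10.22 in GFP1, against 5.46, 4.89 and 5.14 in GFP2 (log2 difference 5.05, SE 0.51, adjusted p = 2.52e-05). Sdc1, the plasma cell surface proteoglycan CD138 (chromosome 12, 8771323 to 8793715), had 10.58, 10.21 and 10.68 in GFP1, against 7.78, 8.09 and 7.99 in GFP2 (log2 difference 2.54, SE 0.19, adjusted p = 2.93e-07). Slpi, a secreted inhibitor of serine proteases, had 13.52, 14.17 and 13.31 in GFP1, against 8.08, 8.43 and 8.17 in GFP2 (log2 difference 5.44, SE 0.35, adjusted p = 3.44e-06).

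Pou2af1, a coactivator of immunoglobulin transcription in B cells, had 10.85, 10.51 and 10.40 in GFP1, against 7.79, 8.004 and 6.91 in GFP2 (log2 difference 3.02, SE 0.37, adjusted p = 0.000184). The plasma cell transcription factors moved the same way, by unequal amounts. Irf4 had 9.65, 9.17 and 9.16 in GFP1, against 5.84, 6.12 and 3.13 in GFP2 (log2 difference 4.30, SE 0.63, adjusted p = 0.0011; the fit of the compared groups alone lost it, adjusted p = 0.0605), Prdm1, which encodes Blimp-1, had 8.96, 8.68 and 8.84 in GFP1, against 7.69, 6.66 and 6.75 in GFP2 (log2 difference 1.79, SE 0.30, adjusted p = 0.000794), and Xbp1, the regulator of secretory expansion, had 13.47, 13.41 and 13.60 in GFP1, against 12.58, 12.80 and 12.72 in GFP2 (log2 difference 0.79, SE 0.11, adjusted p = 0.000178). Xbp1 is also transcribed in cells that secrete no antibody, and its GFP2 values were high. St6gal1, a sialyltransferase, rose by 2.68, SE 0.29, Ly6d, a surface protein of B-committed progenitors, by 2.77, SE 0.37, and Itgal, the integrin subunit CD11a of leukocytes, by 2.34, SE 0.22. Summed over the plasma cell list, the level was 5641 to 6586 ppm in GFP1, against 854 to 968 ppm in GFP2. It was 3606 to 7436 ppm in Total. Of the 8 defining plasma cell markers Jchain, Mzb1, Derl3, Xbp1, Prdm1, Irf4, Sdc1 and Tnfrsf17, 8 rose. The part of antibody-secreting cells in the differences of other genes was not tested.

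The general secretory machinery, which every cell has and plasma cells enlarge, rose in part. Among genes at 10 ppm or more, 5.07% were higher and 9.27% lower. Of 40 genes for folding and secretion in the endoplasmic reticulum, 15 were higher in GFP1 and 1 was lower (median log2 difference 0.26). The higher count was 8 without GFP2 replicate II and 9 without GFP1 replicate III. Herpud1, of the degradation complex for misfolded proteins, had 12.96, 12.88 and 13.10 in GFP1, against 12.20, 12.12 and 12.15 in GFP2 (log2 difference 0.82, SE 0.094, adjusted p = 2.1e-05), and Pdia4, a disulfide isomerase, had 13.08, 12.98 and 13.10 in GFP1, against 12.38, 12.42 and 12.16 in GFP2 (log2 difference 0.73, SE 0.092, adjusted p = 5.44e-05). In both genes the 2 bins did not overlap, as in 691 of the 693 genes called higher. Kdelr1, which returns resident proteins to the endoplasmic reticulum, fell by 0.72 (adjusted p = 0.00835; 0.0606 without GFP1 replicate III).

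Markers of mature B cells rose as well. Of 16 tested, 10 were higher in GFP1 (median 1.30), against 2.50% of all genes and 5.07% of those at 10 ppm or more. The count was 5 without any one of GFP2 replicate III, GFP1 replicate I and GFP1 replicate II. It was 6 with the test limited to genes of at least 10 ppm, which kept 9 of the 16. Their summed level was 392.3 to 606 ppm in GFP1, against 201 to 281 ppm in GFP2 and 383 to 633 ppm in Total. Cd79a, a signalling chain of the B cell receptor, had 11.90, 12.04 and 11.45 in GFP1, against 9.10, 9.75 and 8.84 in GFP2 (log2 difference 2.57, SE 0.36, adjusted p = 0.00135). Ms4a1, the B cell antigen CD20, had 10.54, 10.41 and 9.76 in GFP1, against 8.75, 8.54 and 8.12 in GFP2 (log2 difference 1.77, SE 0.34, adjusted p = 0.00564). H2-Ob, which modulates peptide loading in B cells, rose by 1.18, SE 0.23. Pax5, the B cell identity factor, rose by 2.10, SE 0.42 and Ikzf3, the lymphoid zinc finger Aiolos, by 2.50, SE 0.48.

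Markers of other mature cells were tested in the same way. Outside the immunoglobulin genes, 2.50% of all genes were higher and 4.15% lower. Of genes at 10 ppm or more, 5.07% were higher and 9.27% lower. Of 21 T and NK cell genes, 8 rose and 1 fell (median 1.86), with summed levels of 231 to 256 ppm in GFP1, against 84 to 103 ppm in GFP2. The rising count was 4 without any one of GFP2 replicates II and III and GFP1 replicate I. It was 1 with the test limited to genes of at least 10 ppm, which kept 3 of the 21. Nkg7, a protein of cytotoxic granules, had 11.91, 12.57 and 12.48 in GFP1, against 10.33, 10.42 and 10.26 in GFP2 (log2 difference 1.98, SE 0.26, adjusted p = 0.000347), and Cd2, an adhesion receptor, rose by 2.42, SE 0.45. Klrb1c, the NK receptor NK1.1, fell by 1.34 (adjusted p = 0.00162). Of 25 granulocyte and monocyte genes, 4 rose, namely Ly6c2, Nkg7, Ms4a3 and Cst7, a count of 8 without GFP2 replicate II. Ly6c2, a surface protein of monocytes and also of plasma cells, had 13.04, 13.69 and 12.82 in GFP1, against 9.34, 11.15 and 10.09 in GFP2 (log2 difference 2.99, SE 0.48, adjusted p = 0.00394; 0.0638 with the compared groups alone). Cst7, a cystatin of cytotoxic cells, rose by 2.04, SE 0.35. Mpo, the peroxidase of granulocyte progenitors, had 14.37, 14.99 and 13.85 in GFP1, against 11.48, 13.61 and 11.76 in GFP2 and did not pass (log2 difference 2.12, SE 0.59, adjusted p = 0.0586), but did so without GFP2 replicate II (adjusted p = 0.0129).

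In the neutrophil list limma called 0 of 12 genes, and 0 reached an unadjusted p under 0.05; their summed level was 3362 to 6067 ppm in GFP1, against 1736 to 4377 ppm in GFP2. For 18 macrophage and dendritic cell genes limma called 0, with 2 higher and 1 lower at an unadjusted p under 0.05, and a summed level of 199 to 1233 ppm in GFP1, against 390 to 1747 ppm in GFP2. The libraries of each bin differed widely in that sum, and the bins overlapped. Of 18 mast cell, basophil and eosinophil genes 3 rose, against 2.50% of all genes. Among them were Il1rl1, the interleukin-33 receptor (1.65, SE 0.34), and Cpa3, a mast cell protease (1.54, SE 0.42). The call of Cpa3 was lost without any one of the 6 libraries (adjusted p 0.0509 to 0.118 over all settings that lost it). Without GFP2 replicate II the count of that list was 5, and without any other single library 1. The part of these cell types in other genes' differences was not tested. Endothelial and stromal genes had 2 of 16 lower, Cldn5 and Emcn. That share is near the 9.27% of genes at 10 ppm or more that were lower.

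**Figure D2:**
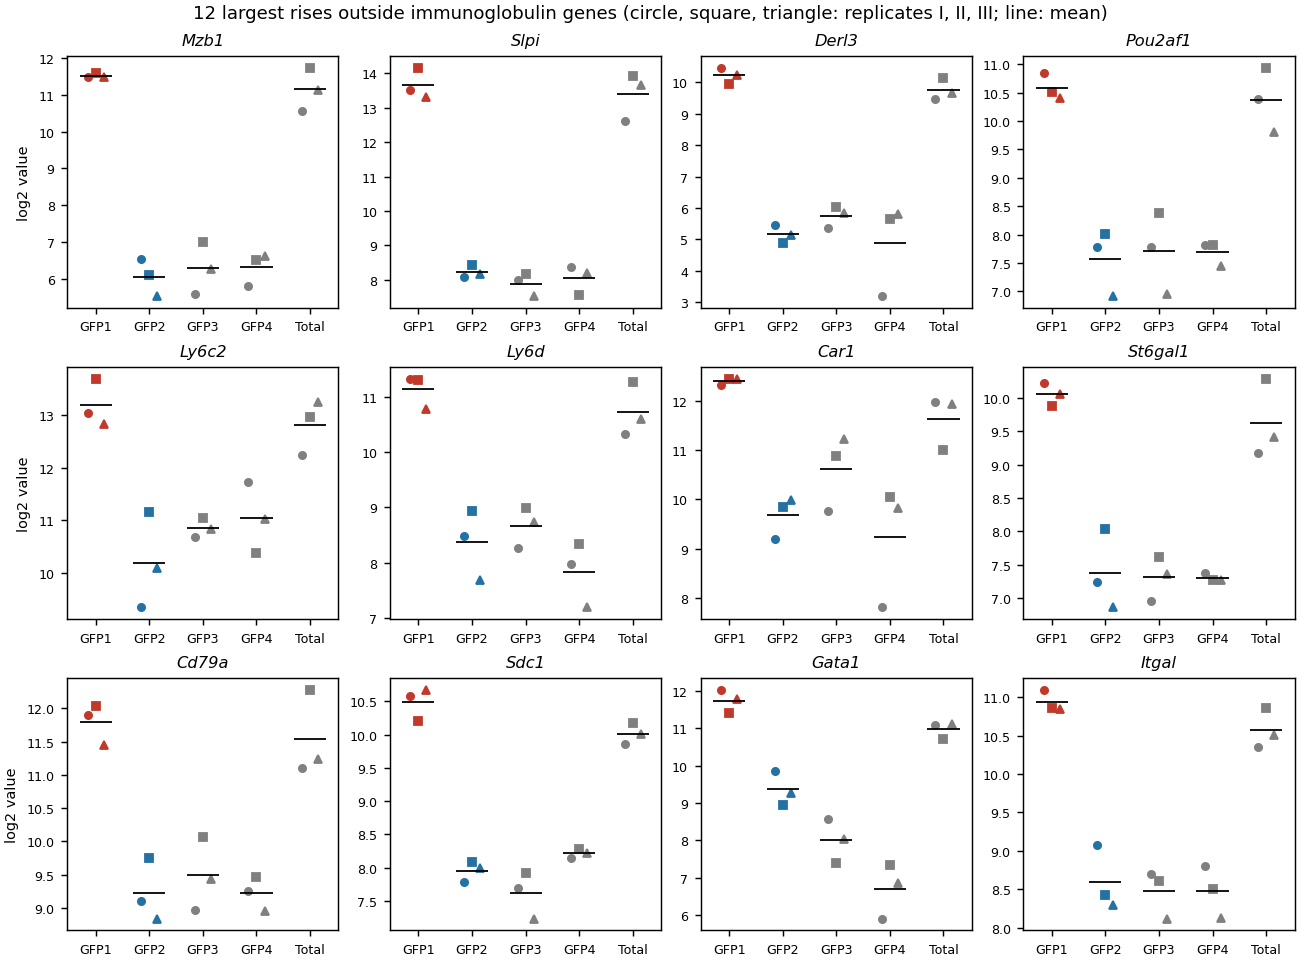
Log2 values of the 12 genes with the largest rise in GFP1 over GFP2 outside the immunoglobulin genes, 1 panel per gene and 1 point per library, with GFP1 (red), GFP2 (blue), and GFP3, GFP4 and Total (grey) along the horizontal axis and a line at each group's mean of 3. In Mzb1, Slpi, Derl3 and Sdc1 the GFP1 and Total libraries lie high and all GFP2, GFP3 and GFP4 libraries low, whereas Gata1 has means of 11.74, 9.36, 8.01 and 6.71 in GFP1 to GFP4.

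Genes of the stem cell program fell over the same step. Of 40 HSC transcription factors and markers, 25 were lower in GFP1 than in GFP2 and 15 did not pass (median log2 difference −0.60, against −0.056 over all genes; 9.27% of genes at 10 ppm or more were lower). Normalized again without immunoglobulin genes, 24 were lower. Their summed level was 6195 to 6618 ppm in GFP1, against 8642 to 9154 ppm in GFP2. Sult1a1, a phenol sulfotransferase enriched in HSCs (chromosome 7, 126672865 to 126676432), had 10.29, 10.41 and 10.10 in GFP1, against 12.06, 12.25 and 12.27 in GFP2 (log2 difference −1.93, SE 0.11, adjusted p = 9.74e-09), the smallest p outside the immunoglobulin genes. Hlf, a transcription factor that maintains HSCs, had 12.85, 12.90 and 12.89 in GFP1, against 13.88, 14.07 and 14.17 in GFP2 (log2 difference −1.16, SE 0.088, adjusted p = 4.29e-07). Procr, the receptor for protein C by which HSCs are enriched, had 9.46, 10.54 and 10.24 in GFP1, against 11.19, 12.14 and 12.16 in GFP2 (log2 difference −1.75, SE 0.35, adjusted p = 0.0126). Without GFP2 replicate II or III it missed the threshold (adjusted p = 0.0576 and 0.0569), as it did with the compared groups alone (adjusted p = 0.109).

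Further genes of that list were picked for description after their values were seen. Mecom, the zinc finger factor Evi1, had 12.02, 12.23 and 12.18 in GFP1, against 13.09, 13.14 and 13.20 in GFP2 (means 12.14 in GFP1 and 13.14 in GFP2, SE of the difference 0.12, adjusted p = 2.22e-05). Fgd5, an exchange factor that marks HSCs, had 10.59, 10.71 and 10.92 in GFP1, against 11.61, 12.11 and 12.19 in GFP2 (log2 difference −1.23, SE 0.15, adjusted p = 5.44e-05). Hoxb5, a homeobox marker of long-term HSCs, had 7.74, 7.47 and 7.91 in GFP1, against 8.94, 8.46 and 8.90 in GFP2 (log2 difference −1.06, SE 0.21, adjusted p = 0.00336). In all of these the GFP1 libraries lay below the GFP2 libraries without overlap, as in 1142 of the 1149 genes called lower. Prdm16, another HSC factor, fell by 0.65, and Cdkn1c, the cyclin-dependent kinase inhibitor p57 of quiescent HSCs, fell by 1.01 (adjusted p = 0.00561).

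The genes of the sort gate were examined next. For Ly6a, Kit, Slamf1, Cd48 and Flt3, the genes of the Sca1, c-Kit, CD150, CD48 and Flk2 proteins used in the sort, limma called 0 of 5, with 1 higher and 1 lower at an unadjusted p under 0.05. Ly6a had 13.002, 13.40 and 12.90 in GFP1, against 12.67, 13.12 and 13.06 in GFP2 and Slamf1 11.17, 10.91 and 10.95 in GFP1, against 11.28, 11.05 and 11.18 in GFP2, with overlapping bins. Kit had 15.35, 15.23 and 15.33 in GFP1, against 15.86, 15.82 and 15.60 in GFP2 (log2 difference −0.46, SE 0.23, adjusted p = 0.356) and passed with the compared groups alone (adjusted p = 0.00155) and with the replicate block added to that fit (adjusted p = 0.000584). Flt3 had 9.54, 9.77 and 9.71 in GFP1, against 9.84, 10.30 and 9.93 in GFP2 (log2 difference −0.35, SE 0.14, adjusted p = 0.167). All GFP1 libraries lay below all GFP2 libraries for both genes, as for 14.7% of all genes. Cd48 encodes a protein absent from the sorted cells by the gate. It had 9.66, 10.31 and 9.56 in GFP1, against 7.72, 9.42 and 8.01 in GFP2; the GFP1 libraries lay above GFP2 by 1.46 on average (SE 0.54, adjusted p = 0.16), and it passed without GFP2 replicate II (adjusted p = 0.0444). Among 12 multipotent progenitor genes, limma called 2 lower and 0 higher (median 0.14), while 8 differences were positive and 4 negative. At an unadjusted p under 0.05, 3 were higher and 3 lower. Of all genes 4.15% were lower, and of those at 10 ppm or more 9.27%. Of the 2 lower genes, Cd27, a receptor of the tumor necrosis factor family, fell by 0.51, and Sox4, a transcription factor, fell by 0.48. The call of Sox4 was lost without GFP2 replicate III or GFP1 replicate I (adjusted p = 0.053 and 0.058).

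The 12 genes with the largest falls had all 3 GFP1 libraries below every other library of the series. Cyp26b1, which degrades retinoic acid, had 7.42, 7.43 and 7.39 in GFP1, against 8.76, 9.01 and 9.37 in GFP2 (log2 difference −1.63, SE 0.19, adjusted p = 1.99e-05). Plk2, a polo-like kinase that p53 can induce, had 8.14, 8.68 and 8.58 in GFP1, against 9.96, 10.92 and 10.36 in GFP2 (log2 difference −1.94, SE 0.32, adjusted p = 0.00332), and Trib3, a stress-induced pseudokinase, had 8.51, 8.61 and 8.56 in GFP1, against 9.93, 10.50 and 10.20 in GFP2 (log2 difference −1.65, SE 0.18, adjusted p = 9.03e-06). Tns2, a tensin of focal adhesions, had 8.85, 9.37 and 9.49 in GFP1, against 10.42, 11.40 and 11.36 in GFP2 (log2 difference −1.82, SE 0.25, adjusted p = 0.000781). The 3 GFP1 libraries of Cyp26b1 and of Trib3 were nearly equal. Genes better known from muscle were also among them: Pygm, the muscle glycogen phosphorylase, had 9.86, 9.48 and 9.23 in GFP1, against 11.20, 11.19 and 10.77 in GFP2 (log2 difference −1.53, SE 0.19, adjusted p = 8.95e-05), and Unc45b, a myosin chaperone, had 7.86, 8.11 and 8.02 in GFP1, against 9.50, 9.79 and 9.60 in GFP2 (log2 difference −1.63, SE 0.16, adjusted p = 3.44e-06). Smtnl1, a smoothelin-like protein, had 5.72, 6.28 and 6.80 in GFP1, against 7.16, 8.55 and 8.995 in GFP2 (log2 difference −1.97, SE 0.50, adjusted p = 0.0343), a call lost without GFP2 replicate II or III or GFP1 replicate I or II, and after normalization without immunoglobulin genes (adjusted p 0.0549 to 0.137). Mettl7a1, a methyltransferase-like protein, fell by 1.72 (SE 0.15), and Cldn5, a tight junction claudin, fell by 1.85 (SE 0.33).

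**Figure D3:**
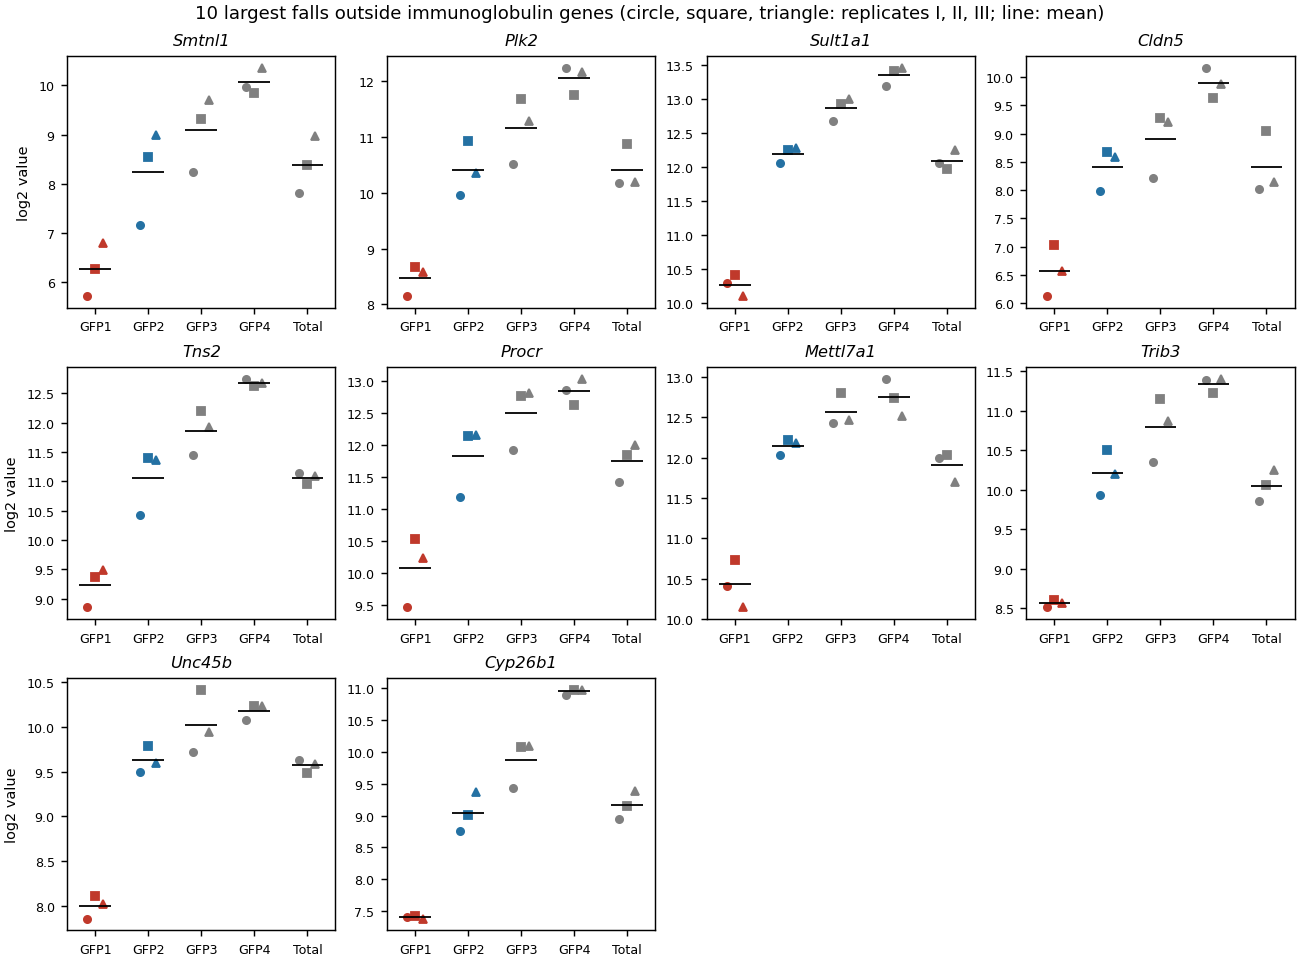
Log2 values of the 10 genes with the largest fall in GFP1 below GFP2 outside the immunoglobulin genes, 1 panel per gene and 1 point per library, arranged as in the plot of the largest rises. In each panel the 3 GFP1 points (red) lie below all other libraries, and the Total libraries (grey, right) lie close to GFP2 (blue), as in Sult1a1 with group means of 10.27 in GFP1, 12.20 in GFP2 and 12.09 in Total.

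Developmental regulators and signals fell in part. For comparison, 9.27% of genes at 10 ppm or more were lower and 5.07% higher. In the Hox clusters, 6 of 19 tested genes were lower (median −0.77; 4 without immunoglobulin genes in the normalization), among them Hoxa9, a factor of HSC self-renewal (−0.66, SE 0.10), and Hoxa5 (−0.77, SE 0.14). Of 26 genes of TGF-beta and retinoic acid signalling, 8 fell and 1 rose. The one that rose was Tgfb1, the ligand, with 13.11, 12.79 and 13.03 in GFP1, against 12.29, 12.13 and 12.23 in GFP2 (log2 difference 0.76, SE 0.11, adjusted p = 0.000189). Those that fell included Cyp26b1 and Aldh1a1, an enzyme that makes retinoic acid, with 12.41, 12.22 and 12.27 in GFP1, against 13.10, 12.86 and 13.02 in GFP2 (log2 difference −0.69, SE 0.10, adjusted p = 0.000262). Of 22 genes associated with HSC ageing, 6 were lower, and 10 with the replicate block; Alcam, an adhesion molecule, fell most by p after Sult1a1, with 8.63, 8.68 and 8.57 in GFP1, against 9.98, 10.09 and 10.18 in GFP2 (log2 difference −1.46, SE 0.17, adjusted p = 2.65e-05).

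Erythroid and megakaryocyte genes rose in part. For comparison, 5.07% of genes at 10 ppm or more were higher and 9.27% lower. Of 25 regulators and early genes, 9 were higher in GFP1, 4 were lower and 12 did not pass (median 0.21). Their summed level was lower in GFP1, at 5361 to 5793 ppm, against 6278 to 6548 ppm in GFP2. Gata1, the transcription factor of both lineages (chromosome X, 7959260 to 7978071), had 12.03, 11.41 and 11.78 in GFP1, against 9.86, 8.96 and 9.27 in GFP2 (log2 difference 2.37, SE 0.37, adjusted p = 0.00193). Klf1, the erythroid Krüppel-like factor, had 10.74, 10.10 and 10.39 in GFP1, against 8.66, 7.81 and 8.08 in GFP2 (log2 difference 2.23, SE 0.32, adjusted p = 0.000434). Epor, the erythropoietin receptor, had 10.25, 10.03 and 10.26 in GFP1, against 9.34, 9.14 and 9.26 in GFP2 (log2 difference 0.93, SE 0.19, adjusted p = 0.00487). Mfsd2b, the sphingosine-1-phosphate exporter of red cells and platelets, had 13.29, 12.79 and 13.03 in GFP1, against 11.21, 10.37 and 10.99 in GFP2 (log2 difference 2.18, SE 0.26, adjusted p = 0.000188), and Slc22a3, an organic cation transporter, had 12.10, 12.39 and 12.41 in GFP1, against 11.16, 11.08 and 11.26 in GFP2 (log2 difference 1.13, SE 0.16, adjusted p = 0.000184). Gata1, Klf1, Epor, Mfsd2b and Slc22a3 did not overlap between the bins, like 691 of the 693 genes called higher. Car1, carbonic anhydrase 1, had 12.33, 12.46 and 12.44 in GFP1, against 9.19, 9.85 and 9.99 in GFP2 (log2 difference 2.73, SE 0.58, adjusted p = 0.0181), but missed the threshold without any single library except GFP2 replicate III (adjusted p 0.0542 to 0.0619).

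Lmo2, a bridging factor of the GATA and Tal1 complex, fell by 0.52 in that list, where Ldb1 and Cnrip1 fell too. Late erythroid genes had 3 of 17 higher, among them Rhd, of the Rh blood group complex (1.68, SE 0.35), and Cldn13 (1.93, SE 0.44; lost without GFP2 replicate II or GFP1 replicate I, adjusted p = 0.0625 and 0.0562). The count was 6 after normalization without immunoglobulin genes, 1 without GFP2 replicate II, and 5 with the replicate block. With the test limited to genes of at least 10 ppm, limma tested 7 members and called 0, with 1 higher at an unadjusted p under 0.05. Over all genes outside the immunoglobulin genes, 2.50% were higher in the main fit. In the megakaryocyte and platelet list, 11 of 29 genes rose while 3 fell (median 0.49). F2rl2, the platelet thrombin receptor PAR3, had 10.24, 10.05 and 10.46 in GFP1, against 8.52, 8.18 and 8.37 in GFP2 (log2 difference 1.89, SE 0.19, adjusted p = 5.17e-06). Itga2b, a subunit of the fibrinogen receptor of platelets, had 14.32, 13.98 and 14.68 in GFP1, against 13.11, 12.64 and 13.002 in GFP2 (log2 difference 1.41, SE 0.21, adjusted p = 0.00113), and Gp5, platelet glycoprotein V, had 11.60, 11.38 and 11.89 in GFP1, against 10.57, 10.02 and 10.30 in GFP2 (log2 difference 1.33, SE 0.17, adjusted p = 6.11e-05). F2r, the thrombin receptor PAR1, rose by 0.84, SE 0.11, and Pf4, platelet factor 4, by 1.69, SE 0.40 (adjusted p = 0.0295), a call lost without any single library (adjusted p 0.052 to 0.113). Mylk, the myosin light chain kinase, fell by 0.76. The lymphoid list split as well: 5 of 24 rose and 3 fell. The rising count was 9 with the replicate block, 2 without GFP2 replicate III or GFP1 replicate I, and 3 without GFP1 replicate II. It was also 3 with the test limited to genes of at least 10 ppm, which kept 12 of the 24. Those that fell included Gata3, the T cell factor (−0.83, SE 0.11), and Ltb, lymphotoxin beta (−0.97, SE 0.19).

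Cell cycle genes rose in part. Among genes at 10 ppm or more, 5.07% were higher and 9.27% lower. Of 20 genes for the G1 phase, 8 rose and 1 fell (median 0.29), and 15 differences were positive and 5 negative. Without GFP2 replicate III, 5 rose. Cdk6, the G1 kinase, had 13.99, 13.93 and 13.77 in GFP1, against 13.03, 12.72 and 12.97 in GFP2 (log2 difference 0.99, SE 0.10, adjusted p = 3.38e-06). Ccne1, cyclin E1, had 9.38, 9.27 and 9.41 in GFP1, against 8.50, 7.83 and 8.30 in GFP2 (log2 difference 1.14, SE 0.21, adjusted p = 0.0017), and E2f8, a repressor of the E2F family, had 11.59, 11.36 and 11.55 in GFP1, against 10.54, 9.83 and 10.52 in GFP2 (log2 difference 1.20, SE 0.19, adjusted p = 0.000435). Ccnd2, cyclin D2, fell by 0.54 (SE 0.089). Of 8 inhibitors of these kinases, Cdkn2c, p18, had 10.43, 10.59 and 11.01 in GFP1, against 10.09, 9.44 and 9.93 in GFP2 (log2 difference 0.86, SE 0.21, adjusted p = 0.015; adjusted p = 0.0968 without GFP2 replicate II and 0.0974 without GFP1 replicate III), while Cdkn1c had 9.28, 9.52 and 9.83 in GFP1, against 10.16, 10.67 and 10.83 in GFP2. Of 48 DNA replication genes, 29 rose, and all 48 had a positive log2 difference (median 0.51). The count was 14 to 19 without GFP2 replicate II or III or any single GFP1 replicate. Mcm2, of the replicative helicase, had 13.72, 13.57 and 13.73 in GFP1, against 13.09, 12.86 and 12.87 in GFP2 (log2 difference 0.73, SE 0.11, adjusted p = 0.000212), and Uhrf1, which keeps DNA methylation through replication, had 13.25, 13.07 and 13.19 in GFP1, against 12.51, 12.13 and 12.37 in GFP2 (log2 difference 0.83, SE 0.12, adjusted p = 0.000224).

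Of 56 mitosis genes, 24 rose, against 5.07% of genes at 10 ppm or more, and 55 had a positive log2 difference (median 0.75). That count depended on single libraries and on the fit: it was 4 without GFP2 replicate II, 9 without GFP2 replicate III, 6 without GFP1 replicate I and 8 without GFP1 replicate III, 34 with the replicate block, 44 with the compared groups alone, 53 with both and 40 with the test limited to genes of at least 10 ppm. At an unadjusted p under 0.05, 55 were higher. Incenp, of the chromosomal passenger complex, had 12.62, 12.49 and 12.70 in GFP1, against 12.004, 11.71 and 11.90 in GFP2 (log2 difference 0.73, SE 0.14, adjusted p = 0.00195), and Mad2l1, of the spindle checkpoint, had 12.22, 12.22 and 12.23 in GFP1, against 11.69, 11.29 and 11.63 in GFP2 (log2 difference 0.69, SE 0.14, adjusted p = 0.00364). Mki67, the proliferation marker, had 14.25, 13.92 and 14.14 in GFP1, against 13.65, 13.03 and 13.46 in GFP2. All its GFP1 libraries lay above all GFP2 libraries, as for 9.38% of all genes. Mki67 did not pass (log2 difference 0.72, SE 0.27, adjusted p = 0.16), except with the replicate block and the compared groups alone (adjusted p = 4.32e-05). Plk1, the mitotic kinase, had 11.91, 11.57 and 11.91 in GFP1, against 11.03, 10.33 and 10.82 in GFP2 (log2 difference 1.07, SE 0.24, adjusted p = 0.0157), and missed the threshold without GFP2 replicate II or GFP1 replicate I or III (adjusted p 0.0642 to 0.0662).

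Promoter sequences are shown for a replication and a mitosis gene because both lists moved together. They come from RefSeq (GRCm38.p6) and run from 250 bases before to 50 bases after a start given there. In GENCODE M21 Uhrf1 begins earlier, at 56303321, so its window lies inside that annotated gene. Capitals mark letters that match on either strand: for Uhrf1 (chr17:56304063-56304362, + strand) the E2F words TTTCCCGC, TTTCGCGC, TTTGCCGC and TTTGGCGC, and for Racgap1 (chr15:99651607-99651906, - strand), which encodes a GTPase-activating protein of cytokinesis, the cell cycle homology word TTTGAA. Each is the gene with the smallest p among the members called higher whose promoter held such a word.
Uhrf1: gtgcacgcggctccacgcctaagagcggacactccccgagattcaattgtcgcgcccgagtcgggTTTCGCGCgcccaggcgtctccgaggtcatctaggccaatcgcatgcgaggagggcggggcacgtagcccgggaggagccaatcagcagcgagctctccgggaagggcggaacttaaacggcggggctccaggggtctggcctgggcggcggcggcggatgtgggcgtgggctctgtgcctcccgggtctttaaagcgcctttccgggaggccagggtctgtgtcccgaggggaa
Racgap1: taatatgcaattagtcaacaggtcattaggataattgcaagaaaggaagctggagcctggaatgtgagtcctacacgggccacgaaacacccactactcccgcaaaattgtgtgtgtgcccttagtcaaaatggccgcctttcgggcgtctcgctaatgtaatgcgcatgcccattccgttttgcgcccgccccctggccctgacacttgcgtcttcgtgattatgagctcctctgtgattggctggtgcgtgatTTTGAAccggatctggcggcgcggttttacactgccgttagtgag
Of the 25 replication genes called higher that had a promoter in the table, 12 held an E2F word, or 48.0%, against 3.41% of the 15386 genes tested that had one. TTTGAA was found in 11 of 19 mitosis genes called higher (57.9%), against 17.2% of genes tested. Over all members with a promoter, called or not, 15 of 39 replication genes held an E2F word (38.5%) and 32 of 46 mitosis genes held TTTGAA (69.6%). The GATA word AGATAA was in 1 of 7 erythroid and megakaryocyte regulators called higher and 3 of all 17, against 10.5%. Such matches describe the letters in these windows and are not binding sites.

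Interferon response genes fell in large part. Of 40 tested, 25 were lower in GFP1 (median −0.61), against 9.27% of all genes at 10 ppm or more, and 22 were lower after normalization without immunoglobulin genes. Their summed level was 2722 to 2846 ppm in GFP1, against 4296 to 4641 ppm in GFP2, with no overlap between the bins; Total held 3968 to 4217 ppm. Ifi44, an interferon-induced cytoplasmic protein, had 10.82, 10.90 and 10.80 in GFP1, against 11.96, 11.98 and 12.01 in GFP2 (log2 difference −1.14, SE 0.10, adjusted p = 1.41e-06). Oasl2, an oligoadenylate synthetase-like antiviral protein, had 11.50, 11.51 and 11.40 in GFP1, against 12.29, 12.41 and 12.36 in GFP2 (log2 difference −0.89, SE 0.087, adjusted p = 3.44e-06). Irf7, a transcription factor of the response, had 10.58, 10.76 and 10.65 in GFP1, against 11.22, 11.44 and 11.22 in GFP2 (log2 difference −0.63, SE 0.11, adjusted p = 0.00148). The GFP1 and GFP2 libraries were separate in all of them, as in 1142 of the 1149 genes called lower.

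The promoter of Rsad2, which encodes the antiviral protein viperin (chr12:26456403-26456702, - strand, GRCm38.p6), is shown for its match to the interferon-stimulated response element, searched on both strands as GAAA, any 2 bases and GAAA again, and capitalized.
Rsad2: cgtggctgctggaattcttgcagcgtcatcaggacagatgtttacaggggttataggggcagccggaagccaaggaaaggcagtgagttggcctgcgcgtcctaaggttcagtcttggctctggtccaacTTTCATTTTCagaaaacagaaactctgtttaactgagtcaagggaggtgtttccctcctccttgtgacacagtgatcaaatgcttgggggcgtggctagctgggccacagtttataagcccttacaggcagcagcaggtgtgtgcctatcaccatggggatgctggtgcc
It had the smallest p among the members called lower that held the word. The word was present in 14 of 20 members called lower with a promoter in the table (70.0%), against 3.91% of genes tested; over all members with a promoter it was in 19 of 27 (70.4%). Of 20 genes for antigen presentation, 5 were lower, against 9.27% of genes at 10 ppm or more. H2-K1, a class I heavy chain, had 16.48, 16.04 and 15.98 in GFP1, against 16.94, 16.86 and 16.94 in GFP2 (log2 difference −0.75, SE 0.11, adjusted p = 0.000391), and B2m, its light chain, had 16.57, 16.57 and 16.57 in GFP1, against 17.13, 17.02 and 17.02 in GFP2 (log2 difference −0.49, SE 0.082, adjusted p = 0.00086). Both are among the highest genes of the table, and both calls were lost after normalization without immunoglobulin genes (H2-K1 adjusted p = 0.0943, B2m adjusted p = 0.893), which left 1 of the 5. The count was also 2 to 3 without any single library other than GFP1 replicate I.

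Metabolic and chromatin genes were counted in the same way. Ndufa1, of respiratory complex I (0.70, SE 0.13), was the 1 of 44 oxidative phosphorylation genes to pass, with a list median of 0.17. That share is below the 5.07% of genes at 10 ppm or more that were higher. After normalization without immunoglobulin genes 3 passed, with the replicate block 4 and with the compared groups alone 7. Of 22 glycolysis genes, 7 fell, and 4 without GFP2 replicate II, GFP1 replicate II or GFP1 replicate III. Ldhb, a lactate dehydrogenase subunit, had 11.33, 11.19 and 11.20 in GFP1, against 12.28, 12.24 and 12.06 in GFP2 (log2 difference −0.96, SE 0.11, adjusted p = 1.93e-05), and Slc2a1, the glucose transporter GLUT1, fell by 0.53. Ribosome biogenesis had 2 of 32 higher, Nhp2 (0.47, SE 0.12) and Nolc1 (0.34, SE 0.094); both were lost without any single one of GFP2 replicates II and III and GFP1 replicates II and III, Nolc1 also without GFP2 replicate I (adjusted p 0.0547 to 0.0868 and 0.0767 to 0.145). That count lies near the 5.07% of genes at 10 ppm or more that were higher, and was 6 with the test limited to such genes. Cholesterol synthesis had 2 of 20 lower, a share near the 9.27% of genes at 10 ppm or more that were lower. Insig1, which acts in sterol sensing, was among them (−0.52, SE 0.12, but adjusted p = 0.0556 without GFP2 replicate III).

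In Polycomb repressive complex 2, Ezh2, the methyltransferase of dividing cells, had 12.12, 11.997 and 11.94 in GFP1, against 11.77, 11.39 and 11.42 in GFP2 (log2 difference 0.49, SE 0.14, adjusted p = 0.0422), which missed the threshold without any single library except GFP2 replicate I, and with no filter on low genes (adjusted p 0.0536 to 0.18). Its paralog Ezh1 had 11.29, 11.13 and 11.04 in GFP1, against 11.89, 11.70 and 11.84 in GFP2 (log2 difference −0.65, SE 0.10, adjusted p = 0.000587), and Phf1, an accessory subunit, fell by 0.89. The other 8 of 11 subunits did not pass. In Polycomb repressive complex 1, 2 of 18 fell, Cbx6 (−0.58, SE 0.10) and Cbx7 (−0.55, SE 0.11), both readers of the methylated histone; that share too is near the 9.27% of genes at 10 ppm or more that were lower, and the count was 4 of 16 with the test limited to those genes. Of 14 DNA methylation genes 3 rose, among them Dnmt1, the maintenance methyltransferase, with 14.07, 13.82 and 14.02 in GFP1, against 13.52, 13.21 and 13.34 in GFP2 (log2 difference 0.61, SE 0.11, adjusted p = 0.00133), and Uhrf1. Of 22 immediate early genes 2 rose, Btg2, an antiproliferative gene (1.15, SE 0.17), and Klf2 (1.26, SE 0.30). For comparison, 5.07% of genes at 10 ppm or more were higher. With the replicate block 3 others of the list fell. Klf2 missed the threshold without GFP2 replicate I (adjusted p = 0.0651) and without GFP1 replicate II (adjusted p = 0.0683). Btg2 is also among 18 p53 targets, where Gtse1, of G2 phase, rose by 1.11, SE 0.25 (adjusted p = 0.0575 without GFP2 replicate II and 0.0532 without GFP1 replicate III) and Plk2 fell. The median of that list was −0.084, and 0.048 after normalization without immunoglobulin genes.

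**Figure D4:**
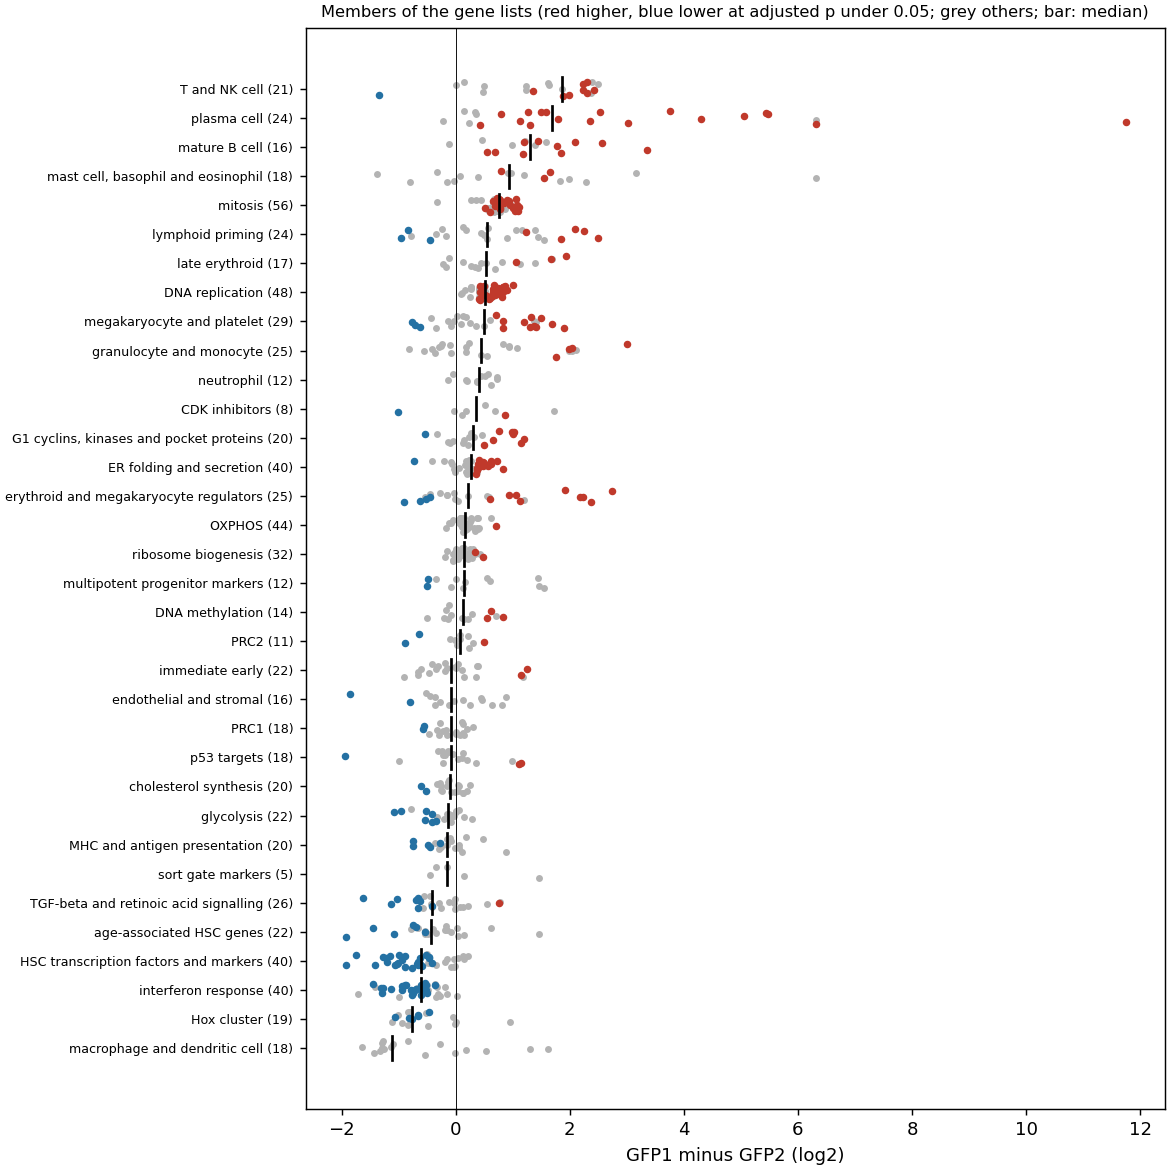
Log2 difference between GFP1 and GFP2 (horizontal axis) for the tested members of the 34 gene lists (rows, number tested in brackets), 1 point per gene, red where higher and blue where lower at an adjusted p under 0.05, with a bar at each list's median. Interferon response (median −0.61) and HSC genes (median −0.60) lie to the left, mitosis (0.75), DNA replication (0.51) and plasma cell genes (1.69) to the right.

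GFP1 against GFP2 was compared with GFP3 against GFP4, the first step, which shares no library with it. In the first step limma called 12 genes higher and 4 lower outside the immunoglobulin genes, against 693 and 1149 in the last. The sign was the same in both steps for 79.8% of the higher and 79.9% of the lower genes, against 54.8% of the genes not called. These sets were not matched for level. The median GFP2 level was 10.19 for the higher and 10.74 for the lower genes, against 5.12 over all genes tested. The part of level in that contrast was not tested. The median differences in the first step were 0.22 for the genes called higher and −0.15 for those called lower. The difference between the steps, GFP1 minus GFP2 less GFP3 minus GFP4, passed for 50 genes in the positive direction (0.181%) and 95 in the negative (0.343%). Of these, 49 were also called higher and 93 called lower in GFP1 than in GFP2. The step difference contains GFP1 minus GFP2 from the same libraries, so that overlap is in part built in. After normalization without immunoglobulin genes, 47 and 44 passed, and with the replicate number as a block 86 and 192. The negative count was 44 to 61 without any one of GFP1 replicates I and III, GFP2 replicates II and III, GFP3 replicates II and III and GFP4 replicates I and II, and the positive count was 33 without GFP1 replicate III.

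Plasma cell genes were among those whose last step was larger: 14 of 24 passed the step difference upward, against 0.181% of genes outside the immunoglobulin genes. That list was chosen with earlier results of these data known, so this count too is no independent test. Sdc1 changed by 2.54 in the last step and −0.60 in the first (log2 difference 3.13, SE 0.26, adjusted p = 4.31e-06). Among genes that fell, the last 3 chosen after their values were seen, Sult1a1 changed by −1.93 and −0.49 (log2 difference −1.44, SE 0.16, adjusted p = 0.000222), Hlf by −1.16 and −0.31 (log2 difference −0.85, SE 0.12, adjusted p = 0.00162), Aldh1a1 by −0.69 and 0.41 (log2 difference −1.10, SE 0.14, adjusted p = 0.000522), and Ifi44 by −1.14 and −0.27 (log2 difference −0.87, SE 0.14, adjusted p = 0.00295). The median of the mitosis list was 0.75 in the last step and 0.87 in the first, and that of the replication list 0.51 and 0.30; the difference of the medians was not tested. Gata1 rose by 2.37 in the last step and differed by 1.30 in the first; that the steps differ was not shown (log2 difference 1.08, SE 0.53, adjusted p = 0.595).

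**Figure D5:**
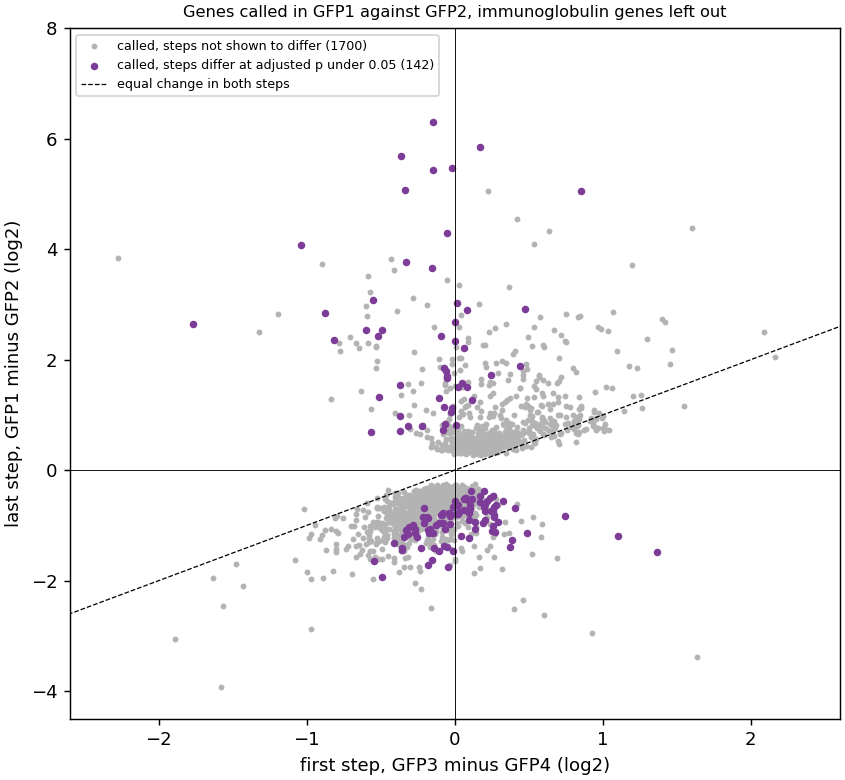
Log2 difference in the last step (GFP1 minus GFP2, vertical axis) against the first (GFP3 minus GFP4, horizontal axis) for the 1842 genes called in GFP1 against GFP2 outside the immunoglobulin genes, 1 point per gene. The 142 purple points, whose steps differed at an adjusted p under 0.05, lie away from the dashed line of equal change, and most grey points lie in the quadrants where both steps have one sign.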

How the data were processed

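RNA of sorted HSCs was made into SMART-Seq v4 and Nextera XT libraries, per the labels' protocols, and kallisto 0.43.0 and GRCm38 are named in the submitters' processing notes. The deposited table holds log2 values per gene symbol, and all 15 libraries share one distribution of them, as quantile normalization gives; the authors' normalization, the offset before the logarithm and the step from transcripts to genes are not stated there. Depth is unknown.

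All 15 libraries were fitted in limma 3.58.1 (R 4.3.3) with 1 mean per group, 10 residual degrees of freedom, trend and robust empirical Bayes, and Benjamini-Hochberg adjustment over 27994 genes with a linear value (2 to the power of the log2 value, less 1) of at least 1 in at least 3 libraries. A call is an adjusted p under 0.05. A value in ppm is a gene's share of the linear total of its library. Members and gene lists were chosen with earlier results of these data known, and lists overlap. Named genes were the 12 largest rises and falls past the threshold with at least 10 ppm, no overlap and a named symbol, the 5 largest immunoglobulin rises, every constant gene, up to 2 genes each way per list by p, and the 5 largest step differences each way; others were added after their values were seen. Same-numbered GFP1 and GFP2 libraries, which share age and treatment length per the labels, deviated together from their group means (correlations 0.43, 0.47 and 0.47), so that the numbers pair them; for GFP3 and GFP4 the values were 0.064, −0.23 and 0.54. Alternatives were other scalings, filters, pseudocounts, weights, the replicate block, fewer groups and each library left out. The fit was tested on simulated data. Some members of the lists are counted but not reported by name here. Gene coordinates are from GENCODE M21.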

Additional observations from a re-analysis of the deposited data

Results flagged for a closer look

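A change in the last step, GFP1 minus GFP2, that differed from the change in the first, GFP3 minus GFP4, was tested in limma for each gene. The 5 largest differences each way under the naming rule are given, on the log2 scale. Slpi changed by 5.44 in the last step and −0.15 in the first (difference of the steps 5.59, SE 0.49, adjusted p = 0.00034). Mzb1 changed by 5.48 in the last step and −0.02 in the first (difference of the steps 5.50, SE 0.51, adjusted p = 0.000137). For Derl3 the values were 5.05 in the last step and 0.85 in the first (difference of the steps 4.20, SE 0.72, adjusted p = 0.012), and for Sdc1 2.54 in the last step and −0.60 in the first (difference of the steps 3.13, SE 0.26, adjusted p = 4.31e-06). Pou2af1 changed by 3.02 in the last step and 0.014 in the first (difference of the steps 3.004, SE 0.52, adjusted p = 0.0137), and its step difference missed the threshold without GFP4 replicate I or II (adjusted p = 0.052 and 0.0526). These genes were picked by the size of that difference, so a smaller or opposite first step follows from the choice.

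Among negative differences, Sult1a1 changed by −1.93 in the last step and −0.49 in the first (difference of the steps −1.44, SE 0.16, adjusted p = 0.000222) and Mettl7a1 by −1.72 in the last step and −0.18 in the first (difference of the steps −1.54, SE 0.21, adjusted p = 0.000967). Unc45b changed by −1.63 in the last step and −0.15 in the first (difference of the steps −1.48, SE 0.23, adjusted p = 0.0022), and Alcam by −1.46 in the last step and −0.015 in the first (difference of the steps −1.44, SE 0.24, adjusted p = 0.00487). Npm3, a nucleoplasmin-family histone chaperone, differed by −0.83 in the last step and 0.74 in the first (difference of the steps −1.57, SE 0.35, adjusted p = 0.0424). Npm3 missed the threshold after either rescaling, with no filter on low genes and without most single libraries (adjusted p 0.0545 to 0.124).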

How the results depend on the processing

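Counts for GFP1 against GFP2 outside the immunoglobulin genes were within 1.5 times the reported ones under every alternative but these: 1144 genes were higher with the replicate block and the compared groups alone, a setting chosen after seeing the data, and the range was 354 to 661 without any single library. The lower genes ranged from 715 to 972 without any single library. Immunoglobulin genes higher numbered 91 with the test limited to genes of at least 10 ppm, which kept 107 of the 306 tested. They numbered 103 to 130 without any single library, and the normalization without them gives no such count. For the difference of the steps, positive genes numbered 88 with array weights, 86 with the replicate block, 87 without the Total libraries and 33 to 51 without any single library. Negative ones numbered 200, 192 and 201 under the first 3 of these, 144 with the 10 ppm filter, 44 after quantile normalization without immunoglobulin genes, and 44 to 91 without any single library. The cause was not tested. mt-Co1, encoded by the mitochondrial genome, had a log2 difference of −0.68 in the main setting and 0.15 after normalization without immunoglobulin genes. Over the genes named, 2323 combinations of gene and alternative kept direction and side of the threshold, 120 lost the call, 12 gained it and 1 reversed. Fitted on all 15 libraries, the replicate block changed the call of Cd3e, a T cell receptor chain, which passed (adjusted p = 0.0424), and of no other named gene in GFP1 against GFP2. With the block and the compared groups alone, Cd3e (adjusted p = 0.00477), Mki67 (4.32e-05), Cd48 (0.000392) and Kit (0.000584) passed, while Ighm (adjusted p = 0.149), Ighg1 (0.235), Ighg2b (0.0541), Iglc2 (0.0512) and a kappa variable segment lost the call. The values carry no depth, so the precision of low genes cannot be stated, and 56 immunoglobulin genes at the lowest value in GFP2 have fold changes that depend on the offset.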

Other observations

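Families of genes defined by their symbols, chosen after values had been seen, are given as values. Among genes at 10 ppm or more outside the immunoglobulin genes, 5.07% were higher and 9.27% lower in GFP1. Of 84 genes for cytosolic ribosomal proteins, 28 were lower in GFP1 (median log2 difference −0.34), and 12 after normalization without immunoglobulin genes (median −0.28). The count was 14 to 15 without any one of GFP2 replicates I and III and GFP1 replicates I and III. Rpl3, a protein of the large subunit, had 15.52, 15.16 and 15.11 in GFP1, against 16.26, 15.76 and 15.90 in GFP2 (log2 difference −0.71, SE 0.13, adjusted p = 0.00241; 0.0992 with the compared groups alone). Of 13 genes encoded by the mitochondrial genome, 6 were lower (median −0.50), but 1 after normalization without immunoglobulin genes (median −0.25), and their summed level was 16471 to 20632 ppm in GFP1, against 30607 to 33098 ppm in GFP2. Of 69 canonical histone genes, 3 were higher and 1 lower (median 0.69), while 2.50% of all genes were higher and 4.15% lower. The higher count was at most 1 without any single library other than GFP2 replicate I.

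The GIMAP genes, which encode GTPases of lymphocytes and lie in one cluster, divided. Of 8 tested, Gimap3, Gimap4 and Gimap7 rose while Gimap1, Gimap5, Gimap6 and Gimap8 fell. Among genes at 10 ppm or more, 5.07% were higher and 9.27% lower. Gimap6 had 12.15, 11.97 and 11.95 in GFP1, against 12.83, 12.86 and 12.98 in GFP2 (log2 difference −0.87, SE 0.11, adjusted p = 4.84e-05). Gimap3 had 10.15, 9.81 and 9.41 in GFP1, against 8.45, 8.81 and 8.27 in GFP2 (log2 difference 1.28, SE 0.32, adjusted p = 0.0275), a call lost without GFP2 replicate I or III or GFP1 replicate I or II (adjusted p 0.075 to 0.113). The rising count was 1 without GFP2 replicate III, GFP1 replicate I or GFP1 replicate II. Of 11 guanylate-binding protein genes, which interferon induces, 5 were lower and all 11 had a negative difference (median −1.001).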
